A study of Mus musculus with 28 samples.

Results

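The response described here is that of control macrophages to lipopolysaccharide (LPS), a bacterial cell wall component, after 1 h. It was read from 2 of the 28 libraries of the series, 1 of untreated cells and 1 of cells given LPS, which stand side by side in a table of strand-specific 4sU RNA. The study depleted Wdr82, Set1a with Set1b, or Pnuts in mouse macrophages and compared them with control vectors. Both libraries come from primary macrophages, differentiated from FVB/Hsd mouse bone marrow with L929-conditioned medium and taken on day 7 of differentiation. The cells carried LMP, the control retrovirus without a hairpin, and were selected with puromycin, so no uninfected cells were compared. LPS was given at 10 ng/ml, and the time of 1 h is that of the sample title, whereas the treatment protocol shared by all samples names 4 h. In both conditions 4-thiouridine (4sU) was in the medium for the last 45 min before harvest, and RNA that had taken it up was isolated. The signal is therefore enriched for transcripts made during labelling. There was 1 library per condition, so differences within the pair have no replicate check and carry no p-value.

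LPS is bound by CD14 and by Toll-like receptor 4 with its partner MD-2, and signals through the adaptors MyD88 and TRIF to NF-kappaB, MAP kinases and interferon regulatory factors. Genes that need no new protein come first: immediate early transcription factors, then cytokines, chemokines and the inhibitors that end the signal. Secondary genes, among them most interferon-stimulated genes, follow once newly made regulators and autocrine interferon act.

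Of 36806 genes in the table, 13258 were measured, that is, had at least 1 FPKM (a fragment count divided by transcript length and library size) in either library and a usable status in both. A gene under 1 FPKM in 1 library could thus be measured through the other library alone, the one in which it was high. Ratios are given as the log2 of (FPKM + 1) at 1 h over (FPKM + 1) in untreated cells, and a gene was called at a ratio of at least 2-fold. By that rule 559 genes (4.22% of those measured) were higher at 1 h and 497 (3.75%) were lower, around a median log2 ratio of 0.05. Many of the calls were small RNAs, pseudogenes and predicted transcripts. Without such names 295 genes (2.97%) were higher and 121 (1.22%) lower. The deposited confidence bounds of the libraries did not overlap for 130 higher genes (0.981%) and 22 lower genes (0.166%). These counts are of entries, and a name can have more than 1 entry. The size of the response was uneven. Among entries with ordinary gene names, 61 had a log2 ratio of at least 2 and 28 of at least 3. Against these, 3 were at -2 or less and 0 at -3 or less. From the commonest ratio between low values, the 1 h library had 0.914 times the depth of the untreated one. The cells carried macrophage markers in both libraries. Lysozyme 2 (Lyz2) was 2524 and 2147 FPKM, the CSF1 receptor Csf1r was 202 and 209 FPKM, and none of 12 measured macrophage markers was called. All 9 erythroid, 9 stromal and 8 mast cell or basophil markers lay under 1 FPKM, and the lymphocyte markers summed to 8.53 and 8.42 FPKM. Neutrophil markers summed to 30.0 and 27.5 FPKM, and of 7 measured, S100a8 (7.09 and 1.95) and Prtn3 (1.03 and 0) were lower. Of 10 dendritic cell markers 3 were measured, and the list summed to 33.6 and 41.9 FPKM with a median log2 ratio of 0.49 at 1 h and of 1.55, 1.39 and 1.295 in the 3 control pairs at 45 min. The measured ones, H2-Ab1, H2-Aa and Cd74, are antigen presentation genes that macrophages also express, and their part in the response was not tested.

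**Figure D1:**
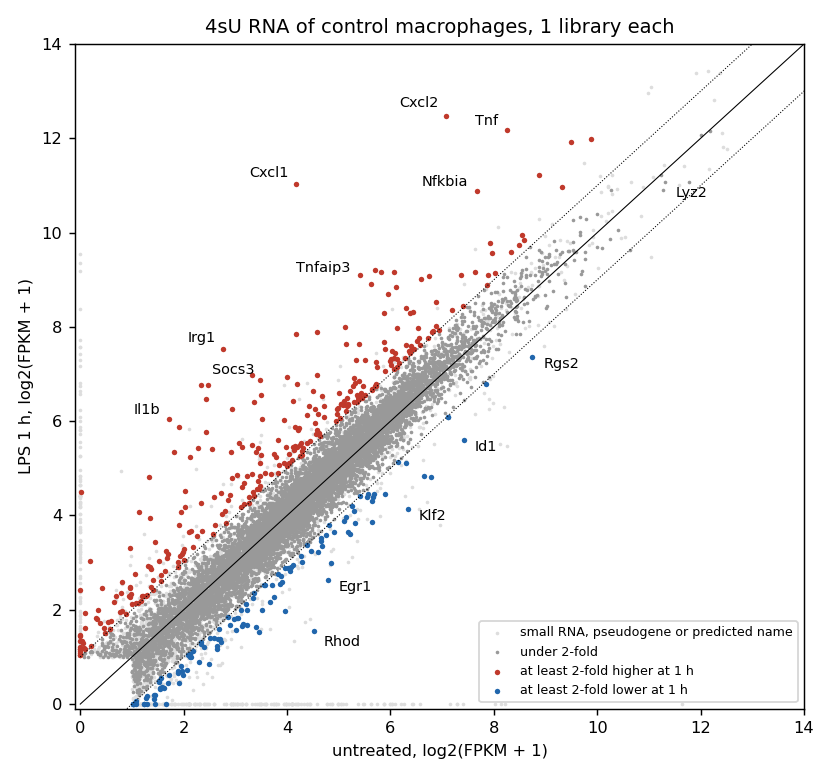
Each dot is a measured gene, with log2(FPKM + 1) of the untreated library on the x axis and of the LPS 1 h library on the y axis. The solid line marks equal values and the dotted lines a 2-fold difference. Red genes reach much farther from the line than blue ones, up to Cxcl1 and Cxcl2. The plot leaves out 16 small RNA, pseudogene or predicted names above 14 on either axis.

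Chemokines gave the 2 highest ratios among ordinary gene names. Cxcl1, a neutrophil chemoattractant, was 17.1 FPKM (bounds 8.57 to 25.6) in untreated cells and 2092 (943 to 3241) after LPS, a log2 ratio of 6.85. Its neighbour Cxcl2, which acts on the same receptor, was 133 (78.4 to 188) and 5710 (1014 to 10423), a ratio of 5.41. The third gene of the group, Cxcl3, was 2.74 and 57.5 (3.97). The bounds of the libraries were apart for all 3. The interferon-inducible T cell attractant Cxcl10 followed at 6.61 and 75.6 (3.33), and the membrane-bound chemokine Cxcl16 at 39.1 and 156 (1.97). On chromosome 11, the macrophage inflammatory proteins Ccl3 (633 and 2011, ratio 1.66) and Ccl4 (243 and 872, 1.84) were higher from an already high level, and Ccl9 (380 and 919, 1.27) lay beside them. The monocyte chemokines did not share this in the 1 h pair: Ccl2 was 2457 and 1901 (-0.37) and Ccl7 was 565 and 435 (-0.38), with overlapping bounds. Over the 3 control pairs at 45 min, however, both were higher, with mean log2 ratios of 1.36 and 1.49. Ccl5 was level in the 1 h pair, at 3.28 and 3.05, but its mean ratio over the 3 control pairs at 45 min was also more than 2-fold higher. In all, 8 of 15 measured chemokines (53.3%) were called higher, against 4.22% of all measured genes, and 0 lower. Their median log2 ratio was 1.27 against 0.05 over all genes.

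In the deposited mm9 coordinates Cxcl3 (ENSMUSG00000029379) spans chromosome 5, 91215129 to 91217112, Cxcl1 (ENSMUSG00000029380) 91320267 to 91322141 and Cxcl2 (ENSMUSG00000058427) 91332897 to 91334935, each alone at its locus. The 100 bases before their starts are shown because they share GGGAATTTCC, a match to the kappaB consensus bound by NF-kappaB. The word was taken from these 3 windows, so finding it there is no result. Nfkbia is 1 of 10 other measured genes that have it. The sequences are from RefSeq (GRCm38.p6), 5′ to 3′ in the direction of the gene. They cover chr5:90891145-90891244 (plus strand) for Cxcl1, chr5:90903799-90903898 (plus) for Cxcl2, chr5:90786001-90786100 (plus) for Cxcl3 and chr12:55492648-55492747 (minus) for Nfkbia. Capitals mark GGGAATTTCC, or its reverse complement in Nfkbia, and ATAAAAG, a word of the TATA box type.
Cxcl1: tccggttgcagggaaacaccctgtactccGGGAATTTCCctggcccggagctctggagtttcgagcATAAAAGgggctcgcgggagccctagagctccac
Cxcl2: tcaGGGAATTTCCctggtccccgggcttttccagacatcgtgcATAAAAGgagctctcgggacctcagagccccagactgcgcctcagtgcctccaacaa
Cxcl3: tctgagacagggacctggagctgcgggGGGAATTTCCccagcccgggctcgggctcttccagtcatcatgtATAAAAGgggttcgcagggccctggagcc
Nfkbia: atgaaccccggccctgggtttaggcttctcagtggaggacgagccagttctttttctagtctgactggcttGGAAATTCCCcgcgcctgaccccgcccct
GGGAATTTCC begins 71 bases before the start in Cxcl1, 97 in Cxcl2 and 73 in Cxcl3, and ATAAAAG 34, 57 and 29 bases before it. Windows of 300 bases, from 250 before to 50 after each start, were searched on both strands. Counted by name, with 1 entry each, 230 of 291 genes called higher and 83 of 120 called lower had at least 1 window. GGGAATTTCC, a special case of the kappaB consensus, lay in 5 of 308 windows of the higher genes (1.62%, 3 of them those of the chemokines), in 0 of 114 of the lower genes and in 13 of 9658 of all measured genes (0.135%). The fifth higher gene with the word was Gbp5, an interferon-inducible GTPase. The other 8 measured genes with it (Asb8, Csad, Hpn, Il16, Map3k7, Trio, Tufm and Zfp84) had log2 ratios from -0.52 to 0.59, so the word was also present at genes with little difference. The whole kappaB consensus lay in 14.6% of windows of the higher genes, 4.39% of the lower and 5.23% of the measured, and ATAAAAG in 6.49%, 7.02% and 3.04%. TGANTCA, the word bound by AP-1, lay in 8.44%, 4.39% and 4.94%, and TGACGTCA, bound by CREB and ATF proteins, in 3.57%, 1.75% and 3.22%. Over all 32851 windows of the table, GGGAATTTCC lay in 0.0883%, the kappaB consensus in 4.51%, ATAAAAG in 5.42%, TGANTCA in 7.81% and TGACGTCA in 1.79%. A match describes the letters of the window and does not show that a protein was bound.

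Of the cytokines, tumour necrosis factor and interleukin 1 led. Tnf was 304 FPKM (bounds 168 to 440) in untreated cells and 4611 (255 to 9395) at 1 h, a log2 ratio of 3.92 whose bounds overlapped because the upper library's were wide. Il1b, which encodes the pyrogenic cytokine interleukin 1 beta, was 2.31 and 64.6 (4.31), with bounds apart, and Il1a was 0.338 and 4.54 (2.05). The growth and survival factors Lif (0.960 and 8.89), Csf1 (3.06 and 17.1), Pdgfb (13.1 and 47.3) and the 4-1BB ligand Tnfsf9 (16.4 and 85.4) were all at least 2-fold higher with bounds apart. Il1rn, the antagonist of the interleukin 1 receptor, was 14.8 and 27.0 and did not reach 2-fold. The anti-inflammatory Il10 was 1.54 and 1.46 in the 1 h pair. Over the 3 control pairs at 45 min, however, the mean log2 ratio was 2.46 for Il1rn and 1.35 for Il10. Of the 28 listed cytokine genes 10 were not measured at 1 h, among them Il6, Il12b and Ifnb1. Of 18 measured cytokine genes, 8 (44.4%) were called higher, against 4.22% of all measured genes, and 0 lower (median 0.78). Among the 8, Il1a, Lif and Csf2 (0 and 1.12) were under 1 FPKM untreated and counted as measured only through the LPS library.

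The inhibitors and subunits of NF-kappaB were higher as a group: 12 of 16 (75%) were called higher and 0 lower. Over all measured genes 4.22% were higher and 3.75% lower. The median log2 ratio of the list was 1.94. Tnfaip3, which encodes the ubiquitin-editing inhibitor A20, was 41.3 and 544 FPKM (3.69). Nfkbia, encoding the inhibitor IkappaB alpha, was 202 and 1883 (3.21), and its relatives Nfkbie (10.2 and 116) and Nfkbiz (51.0 and 592) were higher by 3.39 and 3.51 on the log2 scale. Other inhibitors of the list had lower ratios: Tnip3 (1.88), Tnip1 (1.80), Nfkbid (1.47), Nfkbib (0.55) and Tnip2 (0.07), so these lay within the range of the subunits or below it. Among subunits, Relb was 6.59 and 39.8 (2.43), Nfkb2 was 9.85 and 42.2 (1.99) and Rel was 34.8 and 88.9 (1.33), each with bounds apart. Rela (22.0 and 39.9) and Nfkb1 (36.5 and 47.0) did not reach 2-fold. The signalling adaptor Traf1 was 4.82 and 41.6.

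**Figure D2:**
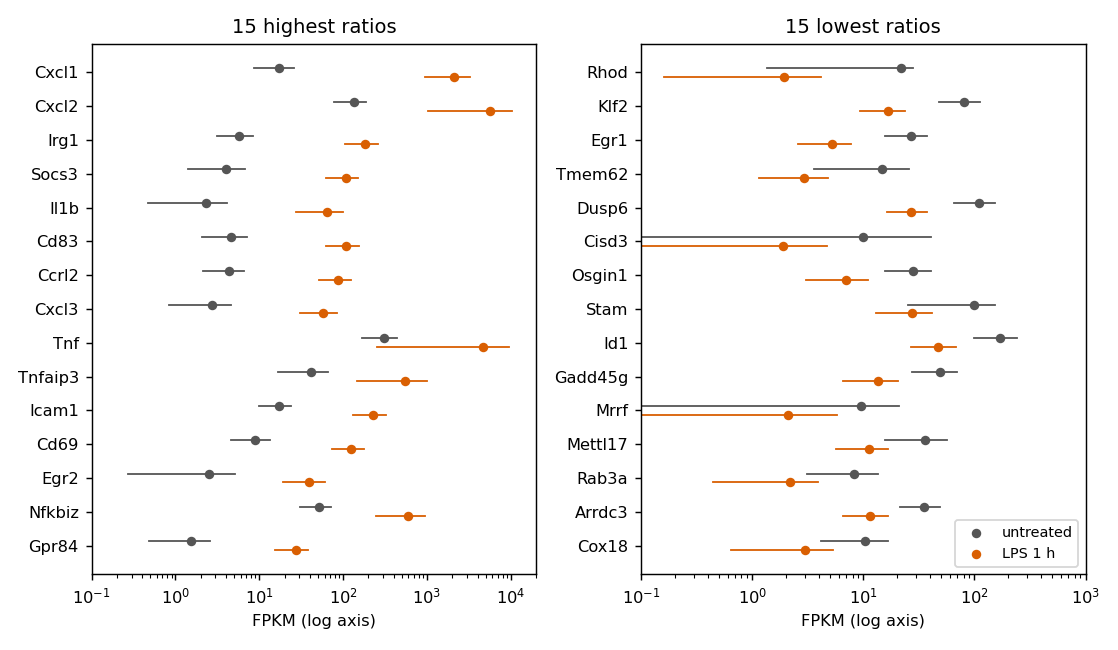
FPKM on a log axis for the 15 highest and 15 lowest ratios among ordinary gene names with at least 5 FPKM in the higher library. Points are the single libraries, grey for untreated and orange for LPS 1 h, and bars are the deposited confidence bounds, drawn down to 0.1. In the left panel the bars are apart for each gene except Tnf, while in the right panel those of Rhod, Tmem62, Cisd3, Stam, Mrrf, Mettl17, Rab3a and Cox18 overlap.

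Other feedback genes split. Socs3, an inhibitor of cytokine receptor signalling, was 4.05 and 108 FPKM (4.42), Zfp36, which encodes the mRNA decay factor tristetraprolin, was 106 and 539 (2.34), and Zc3h12c, of the Regnase family of RNases, was 22.9 and 125 (2.40). The MAP kinase phosphatase Dusp2 was 2.85 and 15.8, and Dusp4 was 76.8 and 162. Against these, the ERK phosphatase Dusp6 was 109 (bounds 65.0 to 153) and 27.1 (16.4 to 37.6), a ratio of -1.98. Gadd45b was 9.22 and 84.4 while its relative Gadd45g was 48.7 and 13.6 (-1.77), so genes of 1 family lay at opposite ends in this pair. Over the 3 control pairs at 45 min the mean log2 ratio was 3.10 for Gadd45b, 0.23 for Gadd45g and -1.21 for Dusp6, so Gadd45g was lower at 1 h only. Of 23 measured genes in this group, 11 (47.8%) were higher and 2 (8.70%), Dusp6 and Gadd45g, were lower (median 0.85). Over all measured genes 4.22% were higher and 3.75% lower. Among the 11, Cish (0.0362 and 1.45) was measured through the LPS library alone.

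Effector and surface genes were next. Irg1, now named Acod1, encodes the enzyme that makes itaconate and was 5.78 and 184 FPKM (4.77). Ptgs2, the inducible prostaglandin synthase, was 3.36 and 36.6, the mitochondrial superoxide dismutase Sod2 was 17.2 and 110, and Marcksl1, which encodes a MARCKS-like protein, was 48.3 and 481. Bcl2a1a (4.14 and 11.7) and Bcl2a1b (46.9 and 90.2) are near-identical copies between which reads may be split. In all, 9 of 21 effector genes (42.9%) were higher, against 4.22% of all measured genes, and 0 lower. At the surface, the maturation marker Cd83 was 4.57 and 107, the chemerin receptor Ccrl2 was 4.40 and 87.0, the adhesion molecule Icam1 was 17.0 and 230, and the early activation antigen Cd69 was 8.98 and 125. The medium-chain fatty acid receptor Gpr84 (1.52 and 27.1) and the C-type lectin Clec4e (55.2 and 576) lay in the same range, from 3.36 to 4.28 on the log2 scale. Costimulatory molecules differed, with Cd40 at 4.03 and 18.2 and both Cd80 (4.88 and 6.04) and Cd86 (16.1 and 16.5) under 2-fold. Of 36 surface genes, 13 (36.1%) were higher and 0 lower (median 0.56).

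Among the receptors that sense LPS, Tlr4 was 56.0 and 42.9 FPKM (-0.38), and its partner Ly96, which encodes MD-2, was 15.9 and 23.9 (0.56). Cd14 was 168 and 348 (1.05), with overlapping bounds and under 2-fold once the ratios were centred. Tlr2, the receptor for bacterial lipopeptides, was far higher, at 22.8 and 236 (3.32). Downstream, the ubiquitin ligase Birc3 (58.0 and 312) and the kinase Map3k8 (17.8 and 57.0) were higher, whereas the proximal kinase Irak1 was 62.0 and 31.4 (-0.96). Of 35 genes of the pathway 7 (20%) were higher, against 4.22% of all measured genes, and 0 lower. The median of 0.23 was above the 0.05 over all genes.

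Most interferon-stimulated genes were under 2-fold at 1 h. Ifit1 was 9.79 and 12.3 FPKM, Isg15 was 10.2 and 10.7, Mx1 was 27.0 and 26.6, and Irf7 was 24.9 and 21.7. Of 31 measured members 3 (9.68%) were called higher, against 4.22% of all measured genes, and 0 lower (median 0.23). The 3 were Irf1, a transcription factor of the interferon response, at 66.3 and 575 (3.10), the schlafen gene Slfn2 at 469 and 2401 (2.35), and Gbp5 at 0.748 and 5.02. Gbp5 was measured through the LPS library alone and was under 2-fold with a pseudocount of 5 FPKM. The macrophage regulator Irf8 was 73.8 and 42.6 (-0.78). In the separate unstranded series of LMP cells, the median log2 ratio of the list was 0.23 at 45 min, 2.27 at 2 h and 4.21 at 4 h, and that of Ifit1 0.31, 5.59 and 8.08.

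**Figure D3:**
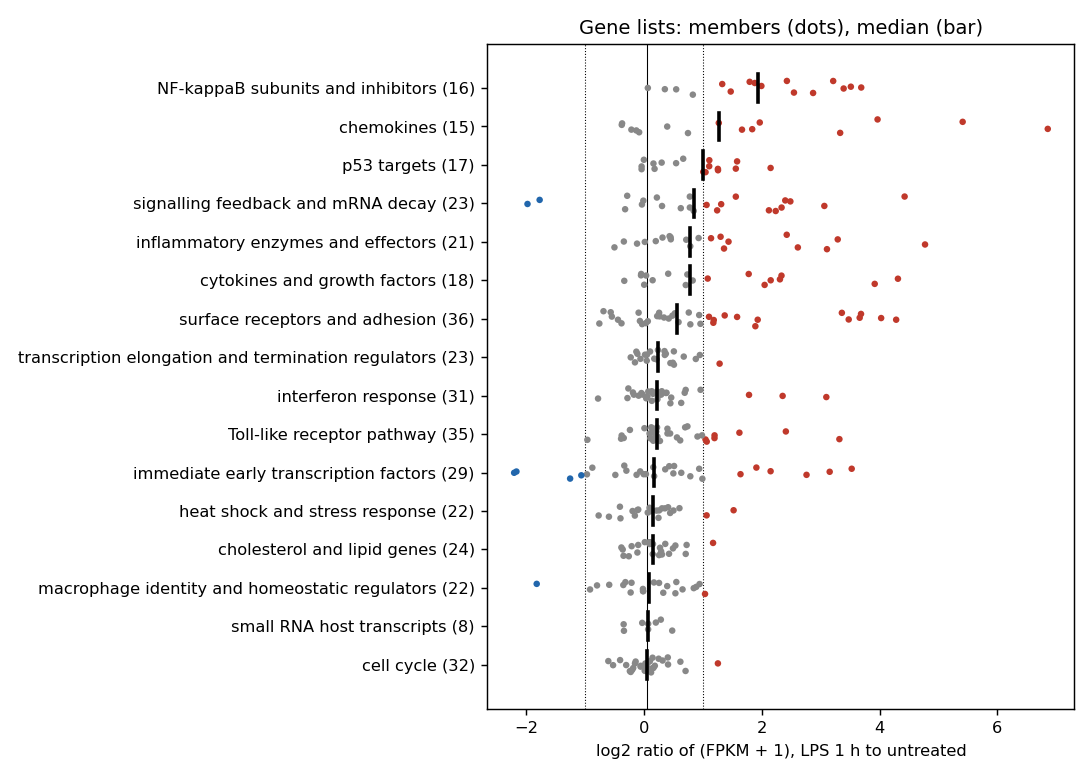
Log2 ratios of LPS 1 h to untreated (x axis) for the measured members of each of 16 gene lists, with the number measured in parentheses. Dots are genes, red if at least 2-fold higher and blue if at least 2-fold lower, black bars are list medians, the thin solid line is the median of all measured genes and dotted lines mark 2-fold. NF-kappaB genes have the highest median, 1.94, and the immediate early list reaches from below -2 to above 3.

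Immediate early genes, which respond to a stimulus within minutes, were spread widely: 6 of 29 (20.7%) were called higher and 4 (13.8%) lower. Over all measured genes the shares were 4.22% and 3.75%. The list median was 0.17. Higher were the zinc finger factor Egr2 (2.53 and 39.6 FPKM, ratio 3.53), the small Maf protein gene Maff (3.82 and 41.9, 3.15), the AP-1 subunit Junb (60.6 and 416, 2.76), Btg2 (21.6 and 99.4), Ier3 (82.7 and 313) and Cebpb (58.4 and 184). Egr1, the founding member of the Egr2 family, was 26.8 (bounds 15.8 to 37.8) in untreated cells and 5.20 (2.57 to 7.83) at 1 h, a ratio of -2.16. Klf2, a factor that keeps macrophages quiescent, was 79.9 and 16.6 (-2.20), Myc was 228 and 109 (-1.06) and Hes1 was 1.74 and 0.150. Over the 3 control pairs at 45 min, however, the mean log2 ratio was above 0 for Klf2 (0.87, SE 0.42) and Myc (1.03, SE 0.11). Fos was level at 92.9 and 92.7, Jun was 196 and 180 and Atf3 was 414 and 824.

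Several of these genes had high ratios in the pairs taken at 45 min of LPS, which come from 3 other sets: LMP cells with unstranded libraries, and cells with a scrambled hairpin in the Set1a+Set1b and the Pnuts set. The sets differ in library kit, and the 1 h pair alone is of the second-strand kind, so time cannot be told apart from kit and set. Each ratio was taken within its own table, and tables were normalized separately. Egr1 had log2 ratios of 6.56, 5.33 and 6.21 in the 45 min pairs, from 2.84, 9.21 and 3.13 FPKM to 362, 410 and 306. Ier2, 41.1 and 22.0 FPKM in the 1 h pair (-0.87), had ratios of 2.85, 2.56 and 2.48. Fos (3.21, 2.98 and 2.61), Dusp1 (5.10, 4.37 and 4.40, against 0.78 at 1 h) and Trib1 (2.16, 1.46 and 1.83, against -1.44 at 1 h) had the same pattern. Egr1 and Trib1, which encodes a pseudokinase, were the 2 genes tested that were called lower at 1 h and 2-fold higher in every 45 min pair. By the 2-fold rule 5.96%, 5.56% and 5.68% of measured genes were higher in the LMP, Set1a+Set1b and Pnuts pairs at 45 min, and 4.6%, 3.46% and 3.33% were lower. In the hairpin cells of the stranded set, whose libraries are not those of the LMP pair, Egr1 was also lower at 1 h, at 34.5 and 5.61 FPKM, and Klf2 was 38.2 and 10.3.

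A limma test of the 1 h ratio against the mean of the 45 min pairs, run over 11953 genes, called 5 genes higher (0.0418%) and 12 lower (0.1%) at 1 h. The 1 h side is a single pair, so the test takes its spread from the 45 min pairs and holds none measured at 1 h. The differences of single genes are therefore given as a description, without their p-values. The difference was -8.20 for Egr1 and -3.51 for Ier2, both below 0 at 1 h and above 2 in every 45 min pair. It was -3.49 for the endothelial immediate early gene Apold1, -2.43 for the protease Adamts1 and -2.33 for the insulin receptor substrate Irs2, which were above 0 in all 4 pairs. The zinc finger genes Zfp58 and Zfp60 went the other way, with differences of 2.13 and 2.35, being lower in all 3 pairs at 45 min and under 2-fold higher at 1 h. Ier2, Apold1, Adamts1, Irs2, Trib1, Zfp58 and Zfp60 were chosen after their values were seen.

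**Figure D4:**
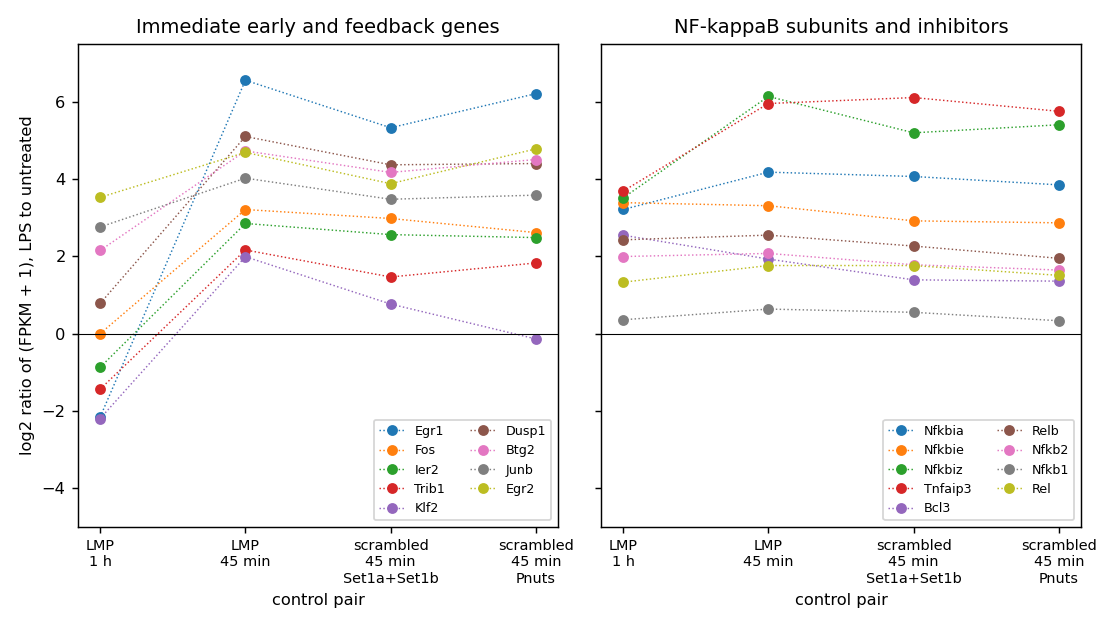
Log2 ratios of LPS to untreated (y axis) in the 4 control pairs (x axis), with dotted lines that only join the points of a gene. On the left, Egr1, Ier2, Trib1 and Klf2 lie below 0 in the 1 h pair and Egr1 reaches 5.33 to 6.56 at 45 min. On the right, NF-kappaB genes lie above 0 in every pair.

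Some immediate early transcripts ranked higher in the untreated stranded LMP library than in the other untreated libraries. Egr1 stood at percentile 88.2 of the 36806 genes, against 70.1, 78.1 and 70.6 in the untreated libraries of the other sets. Fos stood at 97.2, against 88.5, 90.2 and 92.1, and Fosl1, another AP-1 subunit, at 86.8, against 64.4, 69.6 and 74.8. Ier2 did not share this, at 92.2 against 91.6, 94.8 and 93.6. Over the 3007 genes above 20 FPKM in all 8 libraries, log2 FPKM of the stranded LMP pair correlated with the other pairs at 0.73 to 0.82 and within the pair at 0.94 (Pearson's r across genes). The part of these differences in the 1 h ratios was not tested.

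Id1 and Dusp6 were among the genes lower at 1 h that were also lower in each other control pair. Id1, an inhibitor of helix-loop-helix factors and a target of BMP signalling, was 170 (bounds 100 to 240) and 47.4 (26.7 to 68.3) FPKM, a ratio of -1.82, while its relative Id3 was 104 and 215 (1.04, under 2-fold once centred). Osgin1, an oxidative stress response gene, was 27.9 and 7.01 (-1.85), and the arrestin family gene Arrdc3 was 35.0 and 11.6 (-1.52), both with bounds apart. Their mean log2 ratios over the 45 min pairs were -1.33 and -0.84. Rhod, encoding a small GTPase of endosomes, had the lowest ratio, -2.98, at 22.0 (1.36 to 28.2) and 1.92 (0.159 to 4.20). Its bounds overlapped, its locus holds 3 genes, and in the 45 min pairs its ratios were -0.34, -0.43 and -0.29 (difference -2.63). Rgs2, a regulator of G protein signalling chosen after its values were seen, was 428 and 162 with overlapping bounds. Of 22 macrophage regulators Id3 was called higher and Id1 lower, shares (4.55% each) near those of all genes.

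Several p53 target genes were higher, and some of these belong to other lists too. Mdm2, the ubiquitin ligase that restrains p53, was 323 and 773 FPKM, the cyclin-dependent kinase inhibitor Cdkn1a was 83.1 and 181, and the BH3-only genes Pmaip1 (10.01 and 22.7) and Bbc3 (14.9 and 31.9) were both just past 2-fold, and under it with a pseudocount of 5 FPKM. Of 17 measured members 9 (52.9%) were higher, against 4.22% of all measured genes, and 0 lower (median 1.01). Btg2, Fas, Gadd45a and Plk2 were among the higher ones, while Bax (39.8 in both) and Zmat3 (7.56 and 7.33) were level. In the LMP, Set1a+Set1b and Pnuts pairs at 45 min the list median was only 0.38, 0.18 and 0.20. In the fit over these 3 pairs given below, 7 of 16 tested members passed as higher. Several lists had shares close to the 4.22% of all genes and so show nothing about the list. They were cell cycle genes, with 1 of 32 (3.13%), Plk2, higher, cholesterol genes, with 1 of 24 (4.17%), the sterol sensor Insig1 (22.6 and 52.2), and elongation and termination regulators, with 1 of 23 (4.35%), the super elongation complex subunit Ell2 (62.8 and 154). Of 22 heat shock and stress genes 9.09% were higher, namely Hspa1a (1.10 and 3.40) and Hspa1b (0.941 and 4.58), which are near-identical copies. Both had low values, and Hspa1b was measured through the LPS library alone. The host transcripts of small RNAs had a median of 0.07 with none of 8 called.

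The miR-155 precursor, a known LPS-induced RNA, was chosen after its values were seen. Its longer entry (Mir155, ENSMUSG00000091875, mm9 chromosome 16, 84713268 to 84715487) was 0.725 FPKM (bounds 0 to 1.40) untreated and 29.6 (16.8 to 42.4) at 1 h, a log2 ratio of 4.15. A second entry of that name at the same locus was listed at 0 in both. The mature product, from RefSeq, is shown with its seed, bases 2 to 8, in capitals, since the seed sets which mRNAs it pairs with.
mmu-miR-155-5p: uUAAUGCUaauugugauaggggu

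The genes called at 1 h were then looked up in the 3 pairs at 45 min, which hold no value of the 1 h pair. A limma fit over these 3 ratios, each taken within its own table, tested 12228 genes and found 1412 higher (11.5%) and 1133 lower (9.27%) past an adjusted p of 0.05. Of 391 genes called higher at 1 h and tested, 235 (60.1%) passed as higher at 45 min and 7 (1.79%) as lower. Of 239 called lower, 45 (18.8%) passed as lower and 15 (6.28%) as higher. By sign alone, 284 of the higher genes (72.6%) were above 0 in all 3 pairs, as were 37.5% of all genes, and 72 of the lower genes (30.1%) were below 0 in all 3, as were 24.6% of all. At 45 min Cxcl1 rose by 8.30 (SE 0.15, limma adjusted p = 0.000757), Nfkbia by 4.03 (SE 0.10, adjusted p = 0.000799), Tnf by 4.99 (SE 0.16, adjusted p = 0.00124) and Irg1 by 4.76 (SE 0.27, adjusted p = 0.00237), each higher in 3 of 3 pairs. Id1 fell by 1.86 (SE 0.10, limma adjusted p = 0.00233) and was lower in 3 of 3. By list, 15 of 16 NF-kappaB genes rose at 45 min, 14 of 14 chemokines and 20 of 26 immediate early genes.

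A fit over all 4 early pairs, the 1 h pair included, describes what they have in common and is no independent check of the 1 h calls. It tested 11953 genes and found 955 higher (7.99%) and 529 lower (4.43%), of which 326 (2.73%) and 73 (0.611%) had a mean of at least 2-fold. With each pair centred on its median the counts at any fold were 730 and 714, so the split between directions depends on the scaling. The counts were 1412 and 1133 without the 1 h pair, 235 and 57 without the LMP 45 min pair, 247 and 63 without the Set1a+Set1b pair, and 201 and 37 without the Pnuts pair. In this fit 15 of 16 NF-kappaB genes rose (12 without any 1 of the 45 min pairs) and 9 of 14 chemokines (14 without the 1 h pair, 6 without the Pnuts pair). Of 26 immediate early genes 12 rose, against 20 without the 1 h pair and 7, 6 and 5 without the LMP 45 min, Set1a+Set1b and Pnuts pairs.

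The calls of the 1 h pair were set beside those of pairs with which it shares no library. Over all genes measured in each, 11.5% were 2-fold higher and 7.3% lower at 2 h, and 20.3% and 11.3% at 4 h. In the hairpin cells at 1 h the shares were 4.47% and 4.55%, near those of the LMP pair. Of 425 genes higher at 1 h and measured in both, 222 (52.2%) were 2-fold higher at 45 min in unstranded LMP cells, where 605 genes were called, so the shared genes were 36.7% of that list. At 4 h, 262 of 435 (60.2%) were higher, which is 11.95% of the 2192 called there. The 45 min, 2 h and 4 h comparisons share 1 untreated library. For genes lower at 1 h the shared part was smaller, 58 of 302 (19.2%, and 15.3% of the other list) at 45 min, and 39 of the 302 were 2-fold higher there. In the Pnuts pair 48 of 299 were shared and 42 opposite, and at 4 h 82 of 317 were shared and 72 opposite. In these 2 comparisons opposite calls were nearly as many as shared ones. The gap was wider in the Set1a+Set1b pair (66 shared and 42 opposite) and at 2 h (88 and 49). Higher calls were also commoner than lower ones among all genes measured in both. They were 598 against 342 of 12374 in the Pnuts pair, and 2192 against 1384 of 12377 at 4 h. Shared and opposite counts therefore have unlike backgrounds. Of the 425 genes higher at 1 h, 26 were 2-fold lower at 45 min. Against the 1 h pair of the Wdr82 hairpin cells, 231 of 472 higher genes (48.9%, 50% of the other list) and 132 of 356 lower genes (37.1%, 29.9%) were shared. In each direction 41 of these genes had the opposite call there. Across 10372 genes with at least 5 FPKM, the 1 h ratios correlated with the ratios of the 3 pairs at 45 min at 0.19 to 0.22 (Pearson's r across genes, a description). Among 409 genes higher at 1 h and measured at each time, the unstranded LMP cells had their highest LPS value at 45 min for 118 (28.9%), at 2 h for 107 (26.2%) and at 4 h for 184 (45.0%). Over all genes these shares were 33.3%, 23.0% and 43.7%.

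Called genes had shorter median lengths than measured genes as a whole. Among ordinary gene names that were alone at their locus, the median length in the genome was 13.8 kb for 204 higher genes, 5.04 kb for 66 lower genes and 19.8 kb for all 5942. Genes under 5 kb were called higher in 5.83% and lower in 4.18% of cases, and genes over 100 kb in 1.58% and 0.226%. Short genes also had lower values, with a median of 13.7 FPKM in the higher library under 5 kb and 24.2 over 100 kb. The part of level or of noise in this trend was not tested.

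**Figure D5:**
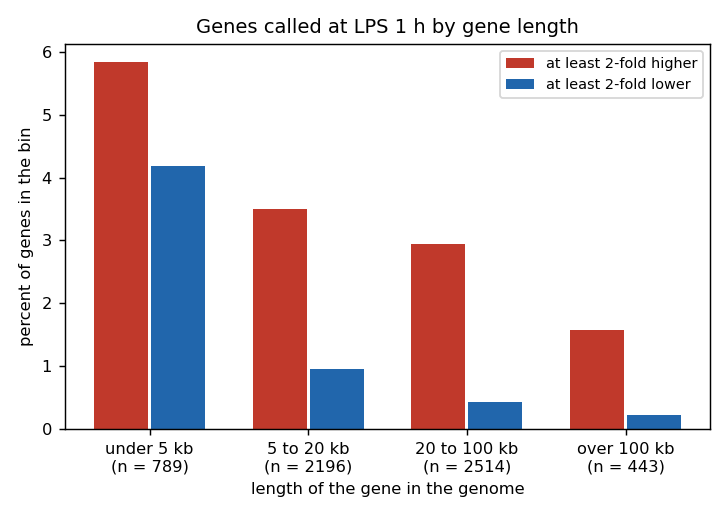
Percent of genes (y axis) called at least 2-fold higher (red) or lower (blue) at LPS 1 h, by length of the gene in the genome (x axis), for genes alone at their locus, with the number of genes under each bin. Both shares are highest under 5 kb, at 5.83% and 4.18%.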

How the data were processed

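The 2 libraries of LMP cells (untreated and LPS 1 h) and those of the other control pairs were read from tables in which the authors give an FPKM with a lower and an upper bound and a status for each gene, per the file headers. The submitters' processing notes name TopHat 1.3.1, Cufflinks 2.1.1, Cuffdiff 2.1.1 and the mm9 build. Which annotation was used, how libraries were scaled and what level the bounds have: not given in the sources used here. These tables hold no counts, so total depth is unknown, and the relative depth of the pair was read from the commonest ratio between values under 1 FPKM.

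Log2 ratios used a pseudocount of 1 FPKM, which understates differences of low genes. The early response was fitted with limma 3.58.1 in R 4.3.3 over 4 within-table ratios (3 residual degrees of freedom, Benjamini-Hochberg adjustment over all genes tested). The calls at 1 h were set against a fit over the 3 ratios at 45 min alone, an alternative chosen after seeing the data. Nothing in the labels says that the sets came from separate cultures or animals, so p-values measure the spread between these pairs. Tested on simulated data, the 4-ratio fit (11594 genes) recovered 49 of 50 genes 4-fold higher and 48 of 50 4-fold lower. It recovered 37 of 50 2-fold higher and 36 of 50 2-fold lower, and called 4 of 11394 unchanged genes. The simulated effect was the same in each pair, and the noise was independent between pairs. Changed genes had at least 5 FPKM in each untreated library. A pair that departs from the others, as the 1 h pair did for Egr1, was not simulated, so these rates may not hold for the real data.

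Named genes are the 15 highest and 15 lowest ratios and up to 8 members per list with the largest ratios, at 5 FPKM or more in the higher library and without small RNA, pseudogene or predicted names. Further list members are given for contrast and were chosen with their values in view, and the text says which genes from outside the rule and the lists were picked with their values in view. Irg1 and Emr1 are older names of Acod1 and Adgre1. The members, the 16 gene lists and the tests were chosen with earlier results of these data known. Promoter and miRNA sequences came from RefSeq (GRCm38.p6) and were matched by symbol. Alternatives covered the pseudocount, the FPKM filter, centring, the bounds, gene names, the variance trend and leaving out each pair. In the tables read, 11 FPKM columns were not used, and the polyA table was not analysed here.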

Additional observations from a re-analysis of the deposited data

Results flagged for a closer look

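In 8 named genes the LPS ratio of the 1 h pair differed from that of the 3 pairs at 45 min on the log2 scale, by a limma test that takes the spread of the single 1 h pair from the others. The 1 h ratio was lower for Egr1 (-8.20), Ier2 (-3.51), Apold1 (-3.49), Rhod (-2.63), Adamts1 (-2.43) and Irs2 (-2.33). It was higher for Zfp58 (2.13) and Zfp60 (2.35). No spread was measured at 1 h, all but Egr1 and Rhod were named after their values were seen, and the time of the 1 h pair cannot be told apart from its library kit and set.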

How the results depend on the processing

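For the 1 h pair, 559 higher and 497 lower genes became 323 and 199 with a pseudocount of 5 FPKM, 130 and 22 with bounds apart, and 295 and 121 with ordinary names only. A pseudocount of 0.1 FPKM gave 819 lower genes and a filter of 5 FPKM 288, with higher counts of 750 and 436. Centring gave 498 and 565, and no filter left both counts as they were. For the 4-pair fit, leaving out 1 pair in turn gave 201 to 1412 higher and 37 to 1133 lower genes. Its other alternatives stayed within 1.5 times of 955 and 529, although centring moved the split to 730 and 714. Of 411 recomputed ratios of named genes, 383 moved by less than the spread between pairs and 28 by more, with none reversed. That spread includes the 1 h pair, so it is wide for genes in which this pair departs from the others. Rhod, for example, went from -2.98 to -1.97 with a pseudocount of 5 FPKM and still counted as within it. Of 85 called named genes, 8 went under 2-fold with a pseudocount of 5 FPKM (Rab3a, Cox18, Gbp5, Bcl2a1a, Slc7a11, Fas, Pmaip1 and Bbc3) and 3 with centring (Cd14, Id3 and Bbc3). Of 95 named genes that passed the 4-pair fit, 1 missed the threshold without the 1 h pair (Psat1), 26 without the LMP 45 min pair, 26 without the Set1a+Set1b pair and 37 without the Pnuts pair. The 4-pair fit already pairs each LPS library with the untreated library of its own set, and no block by replicate number could be added, since the labels carry none. Total depth is unknown, and with 1 library a side no spread between cultures was measured at 1 h.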
